A study of Sus scrofa with 20 samples.

Results

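The genes described here encode the proteins of the cytosolic ribosome. They were taken as every Ensembl row of the count table whose pig symbol begins with RPL or RPS followed by a digit, together with RPLP0, RPLP1, RPLP2 and RPSA. Of 61 rows that the symbol pattern picked, 12 were left out, namely 10 kinases of the RPS6K family and RPL26L1 and RPL7L1, which leaves 49 genes of 25880 gene rows. These 49 matched 45 of 77 symbols listed for the family in mammals, plus 4 paralogs, while 32 symbols, RPS6 and RPS19 among them, had no row of that name and are not analysed here.

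The tissue was hypothalamus, which controls feeding and growth through peptide neurons, and its RNA was sequenced in 20 samples from pigs aged 2 months. Crossbred pigs (Iberian x Large White) were compared with pigs of the Iberian breed, and each breed held 5 males and 5 females, with 1 library per sample. The labels do not state that each sample came from another animal, and p-values measure the spread between these samples. All groups shared the age and the tissue, and the labels name no treatment that separates them. Markers of neurons, oligodendrocytes and astrocytes were counted in 20 of 20 libraries, with summed levels for 9 neuronal genes of 80.5 to 111 CPM (counts scaled to the library total of gene counts) in 19 libraries and 136 CPM in 1, Iberian male 5.

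A ribosome is built from ribosomal RNA and a large and a small subunit of proteins, each made in about equal number because each ribosome takes a single copy of most of them. The acidic P proteins form a stalk on the large subunit that recruits elongation factors. In mammals most of these messengers carry a pyrimidine tract at their start through which mTOR signalling sets their translation, and they are among the abundant messengers of most tissues.

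The ribosomal protein genes together held 70717 of 38453046 gene counts, a share of 0.184% that ranged from 0.170 to 0.209% over the libraries. Library totals ran from 1430138 to 2384615 gene counts, 4.04 to 4.62% of the entries counted. In 20 of 20 libraries the mitochondrial gene ND6, which is copied from the other strand than COX1, had more counts than COX1, by 19.8 to 141 times. Of all entries, 80.2 to 88.1% matched no feature. Whether reads were counted by strand, and by which strand, is stated nowhere in the labels. How far the counts of a gene are reads of its own strand or of the other is therefore not known, and this was not tested. Many ribosomal protein genes also have processed copies elsewhere in mammalian genomes, and alignments that were not unique, 3.89 to 9.50% of entries, were given to no gene. Counts of a member are therefore an uncertain measure of its messenger. In bulk tissue, fewer cells of a type and less RNA per cell cannot be told apart.

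Iberian male 5 stood apart from the other 19 libraries. ND6 took 23.7% of its gene counts, against 5.37 to 9.997% in the others, and alignments that were not unique took 3.89%, against 5.83 to 9.50%. The 5 matched markers of the anterior pituitary, the gland that hangs below the hypothalamus, summed to 286 CPM in this library and to at most 3.75 CPM in the others. Where leaving it out turned the difference of a tested ribosomal protein gene named here or moved it by over 1.5 times, the value without it is given too.

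Counts were spread unevenly over the members. RPL7A, a large-subunit protein whose introns carry small nucleolar RNAs in mammals, had 21634 counts (385 to 1547 per library), which was 30.6% of all counts of the 49 genes. RPL36AL, an autosomal paralog of the X-linked RPL36A, had 10619 counts (258 to 684), and RPL5, which carries the 5S ribosomal RNA into the large subunit, had 7528 counts (265 to 497). Among small-subunit proteins, RPS25 had 3252 and RPS2 had 2943 counts. The 4 most counted genes took 60.9% and the 8 most counted took 74.4%. Counts were not adjusted for length, since no transcript lengths were given, so they show the depth behind each gene and not an order of expression.

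By class, 18 large-subunit genes held 40110 counts, 24 small-subunit genes 18491, 3 P stalk genes 1272 and 4 paralogs 10844. The median gene of the large-subunit class had 549 counts over the 20 libraries and the median gene of the small-subunit class had 361. At the low end among genes that could be tested stood RPL38 with 177, RPS13 with 190 and RPL27 with 207 counts in all. RPL10L, the testis paralog of RPL10, had 0 counts in 20 libraries, which over all gene counts allows a level of up to 0.0780 CPM (3 counts, counting error only). RPS15A and RPS27L, a paralog of RPS27, had 0 counts in at least 1 library. The other 46 genes were counted in every library.

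**Figure D1:**
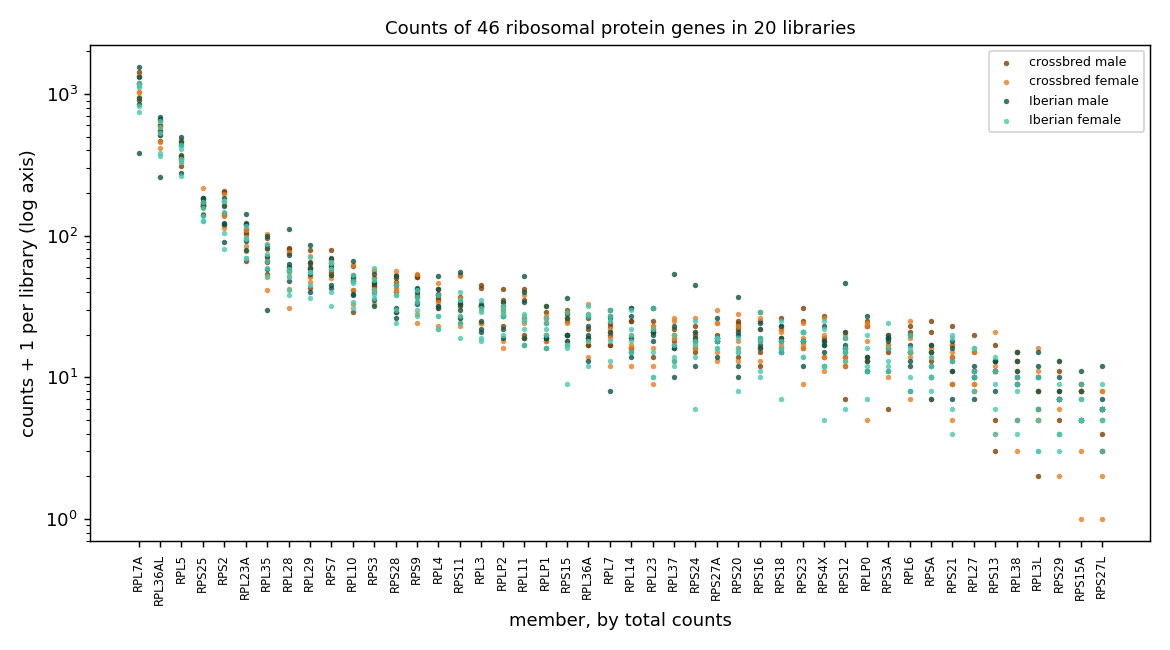
Counts plus 1 per library on a log axis for 46 of the 49 ribosomal protein genes, ordered by total counts from left to right, with 1 point per library coloured by group. RPL10L, which had no counts, and the 2 members not reported singly are left out. RPL7A lay between 385 and 1547 counts, and genes right of RPS28 lay mostly under 50 counts per library, where a single library above the rest, Iberian male 5, can be seen for RPL37, RPS24 and RPS12.

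Some ribosomal protein genes with few counts lay beside genes with many. In the RefSeq annotation of Sscrofa11.1, 26 members had another gene within 1000 bases, and 22 pairs of a member and such a gene could be matched to the count table, over 16 members. RPS2 (chromosome 3, 39996179 to 40003110), with 2943 counts, overlaps NDUFB10 (40003109 to 40005650), a subunit of respiratory complex I that had 414599 counts, 141 times as many. RPS27A (chromosome 3, 85989609 to 85992257), made as a fusion with ubiquitin, had 363 counts, while MTIF2, a mitochondrial initiation factor 154 bases away, had 125020, which was 344 times as many. RPL23A (chromosome 12, 44956851 to 44960737) had 1955 counts against 151479 for TLCD1, 228 bases away. RPL29 (chromosome 13, 34119541 to 34121842) had 1132 counts against 87353 for ACY1, which overlaps it. RPS21 (chromosome 17, 61763606 to 61764823) had 241 counts against 48190 for CABLES2, 110 bases away, and RPS18 (chromosome 7, 29638856 to 29642912) had 351 against 20879 for VPS52, which overlaps it. RPL3L, the striated-muscle paralog of RPL3, also overlaps NDUFB10 and had 134 counts.

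In all, 6 of 21 matched neighbours had over 20000 counts, a line chosen after the values were seen that 1.96% of 14857 gene rows with a symbol passed. The 3 members with the most counts lay beside genes with few: RPL7A (chromosome 1, 272961421 to 272965636) overlaps MED22, which had 125 counts, RPL5 lies 166 bases from EVI5 with 65, and RPL36AL lies 644 bases from MGAT2 with 246. In 8 of 22 pairs the neighbour had more counts than the member, and 13 neighbours had under 1000. The annotation used gives no strand for these genes, and how far reads of one gene of a pair were counted for the other was not tested. None of the 11 neighbours with enough counts for the test passed it for breed (0 of 11 at an adjusted p under 0.05 in edgeR's quasi-likelihood test, adjusted p 0.711 to 0.956), with 0 at an unadjusted p under 0.05 and 0 called by DESeq2.

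**Figure D2:**
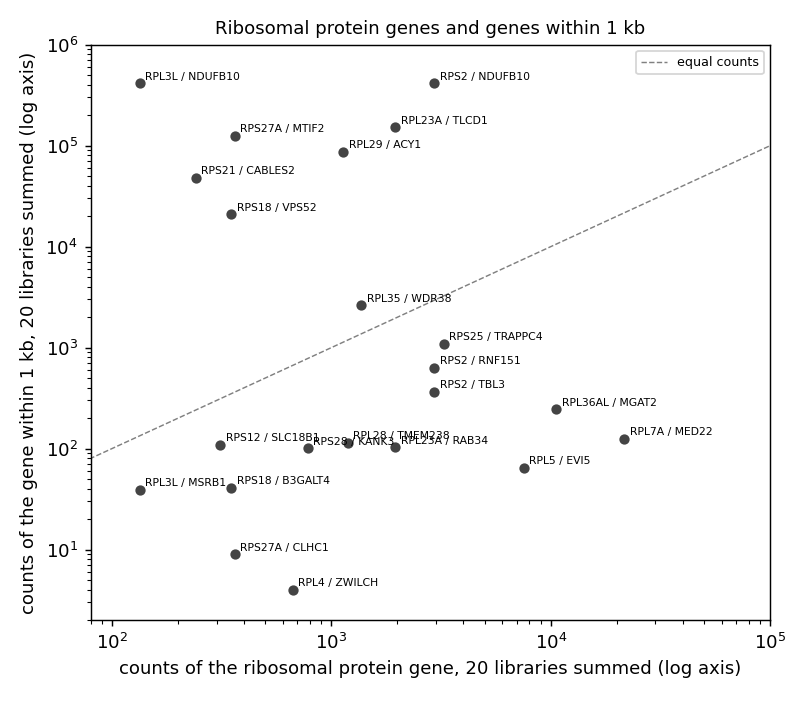
Counts summed over 20 libraries for a ribosomal protein gene (x axis, log) and for a gene within 1000 bases of it (y axis, log), 1 point per pair, with the line of equal counts dashed. The 7 pairs at the top hold NDUFB10, TLCD1, MTIF2, ACY1, CABLES2 and VPS52, with 20879 to 414599 counts, while MED22, MGAT2 and EVI5 at the right lie far below the line.

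The question of the series was which genes differed between breeds and sexes. Summed over the 49 members, crossbred pigs had 1894 ± 86.4 CPM and Iberian pigs 1787 ± 67.0 CPM (SD, n = 10 each). The sums ran from 1754 to 2088 CPM in crossbred pigs and from 1698 to 1906 CPM in Iberian pigs, so the breeds overlapped. Without the 4 most counted genes, the remaining 45 summed to 733 ± 75.8 CPM in crossbred pigs and 719 ± 145 CPM in Iberian pigs. The wide spread of the Iberian pigs came with 1 library, since without Iberian male 5 their sum was 675 ± 38.9 CPM (n = 9). No test was made on these sums, because the members were chosen with earlier results of these data known.

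By group, the 45 genes summed to 710, 687, 718, 732 and 758 CPM in crossbred males and to 641, 725, 705, 720 and 930 CPM in crossbred females. They summed to 676, 675, 636, 660 and 1118 CPM in Iberian males and to 617, 717, 744, 658 and 689 CPM in Iberian females. Crossbred female 5 and Iberian male 5 were the high libraries, and the other 18 lay between 617 and 758 CPM. Over all 49 genes Iberian male 5 was at 1778 CPM, within the range of the others, with RPL7A and RPL36AL low in it. With ND6 left out of the library totals its sum was 2329 CPM, against 1857 to 2242 CPM in the other 19.

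**Figure D3:**
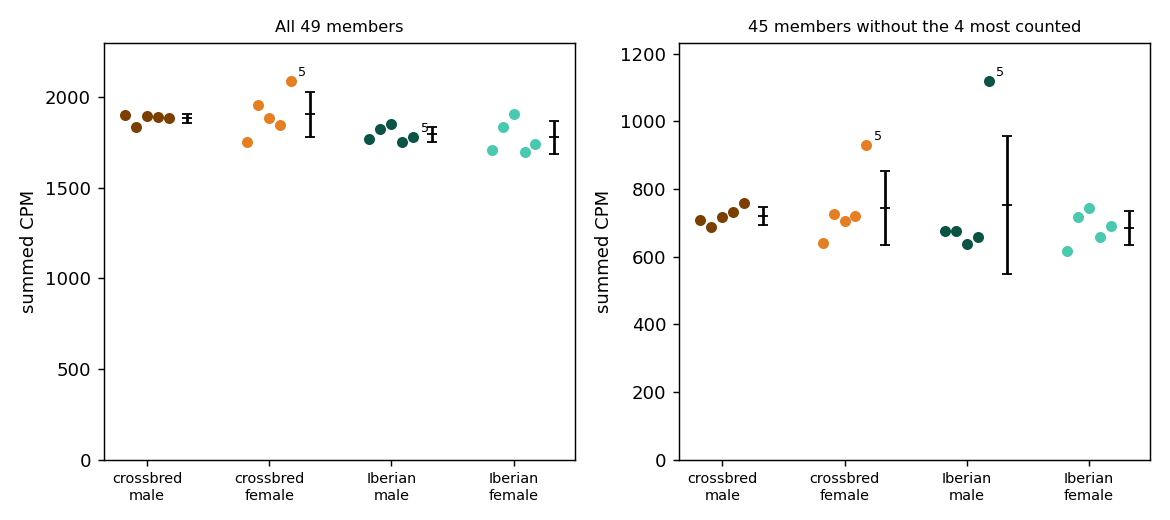
Summed CPM per library (y axis) of all 49 ribosomal protein genes on the left and of the 45 genes without the 4 most counted on the right, for crossbred males, crossbred females, Iberian males and Iberian females, with mean and SD as a bar beside each group of 5 and the libraries numbered 5 in crossbred females and Iberian males marked. On the right, Iberian male 5 at 1118 CPM and crossbred female 5 at 930 CPM lie above the other 18 libraries.

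Of the 49 genes, 44 had enough counts for the test and 5 did not (RPL3L, RPL10L, RPS15A, RPS27L and RPS29). None of the 44 passed for breed in edgeR's quasi-likelihood test (0 of 44 at a Benjamini-Hochberg adjusted p under 0.05, where 0.226% of all 7090 genes tested passed), and 0 were called by DESeq2 or by limma voom. At an unadjusted p under 0.05 stood 1 of 44, against 7.48% of all genes. The log2 difference of crossbred minus Iberian pigs was above 0 in 16 and below 0 in 28 members, with a median of -0.02, against -0.00 over all genes. Without Iberian male 5 it was above 0 in 34 and below 0 in 10, with a median of 0.09, so the direction of most members rested on that library. The standard error of a member's breed difference ran from 0.07 to 0.31 with a median of 0.19, so small differences could not be seen for most members at this depth.

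RPL5 had the smallest p for breed. It was at 166, 179, 204, 161 and 186 CPM in crossbred males and at 212, 199, 187, 200 and 203 CPM in crossbred females. In Iberian males it was at 243, 207, 208, 199 and 182 CPM and in Iberian females at 226, 185, 190, 197 and 191 CPM. The low values were those of crossbred males, and the breeds overlapped. The log2 difference was -0.16 (SE 0.07, adjusted p = 0.564 in edgeR) and stayed at -0.16 without Iberian male 5 (adjusted p = 0.412).

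Of the small-subunit members, RPS28 averaged 22.2 ± 2.77 CPM in crossbred pigs and 18.4 ± 2.57 CPM in Iberian pigs (log2 difference 0.21, SE 0.12, adjusted p = 0.736 in edgeR). RPSA, which also serves as a laminin receptor, averaged 7.26 ± 2.36 CPM in crossbred and 5.73 ± 1.92 CPM in Iberian pigs, a log2 difference of 0.29 (SE 0.22). RPS12 had the most negative value, -0.43 (SE 0.29), which was -0.11 (SE 0.21) without Iberian male 5. As a class, 22 small-subunit genes were tested, of which 10 lay above 0 and 12 below, with 0 called. Without Iberian male 5, 19 lay above 0 and 3 below (median 0.13).

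Of 18 large-subunit genes 4 lay above 0 and 14 below for breed, with a median of -0.11 and 0 called. With Iberian male 5 left out, 12 lay above 0 and 6 below (median 0.05), so the direction of both classes rested on that library. RPL23 had a log2 difference of -0.29 (SE 0.21) and RPL14 of -0.25 (SE 0.21), which were -0.16 (SE 0.19) and -0.07 (SE 0.18) without it, and neither passed. RPL11, the partner of RPL5 in the 5S particle and, when free, a binder of MDM2, averaged 13.3 ± 2.72 CPM in crossbred pigs and 14.8 ± 7.35 CPM in Iberian pigs (log2 difference -0.17, SE 0.21). Without Iberian male 5, Iberian pigs averaged 12.7 ± 3.42 CPM for RPL11, and the log2 difference was 0.05 (SE 0.17). RPL7A averaged 591 ± 30.8 CPM in crossbred pigs and 524 ± 109 CPM in Iberian pigs, or 554 ± 56.8 CPM in the 9 without Iberian male 5. Its log2 difference was 0.12 (SE 0.09) with that library and 0.06 (SE 0.06) without it.

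The P stalk genes did not pass either. RPLP0, the core of the stalk, averaged 8.84 ± 3.81 CPM in crossbred pigs and 7.27 ± 3.81 CPM in Iberian pigs (log2 difference 0.23, SE 0.28). RPLP1 averaged 12.05 ± 3.60 CPM in crossbred and 11.2 ± 3.91 CPM in Iberian pigs (0.05, SE 0.20), and RPLP2 14.2 ± 3.59 CPM in crossbred and 14.04 ± 3.91 CPM in Iberian pigs (-0.02, SE 0.18). Without Iberian male 5 the log2 differences were 0.49 (SE 0.24, adjusted p = 0.550 in edgeR) for RPLP0, 0.24 (SE 0.18) for RPLP1 and 0.12 (SE 0.16) for RPLP2. Without crossbred female 5 they were 0.11 for RPLP0, -0.04 for RPLP1 and -0.12 for RPLP2, so the direction of the stalk genes other than RPLP0 turned with 1 library. The paralog RPL36AL averaged 277 ± 15.5 CPM in crossbred pigs and 271 ± 41.0 CPM in Iberian pigs (-0.02, SE 0.07, and -0.07, SE 0.05, without Iberian male 5).

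**Figure D4:**
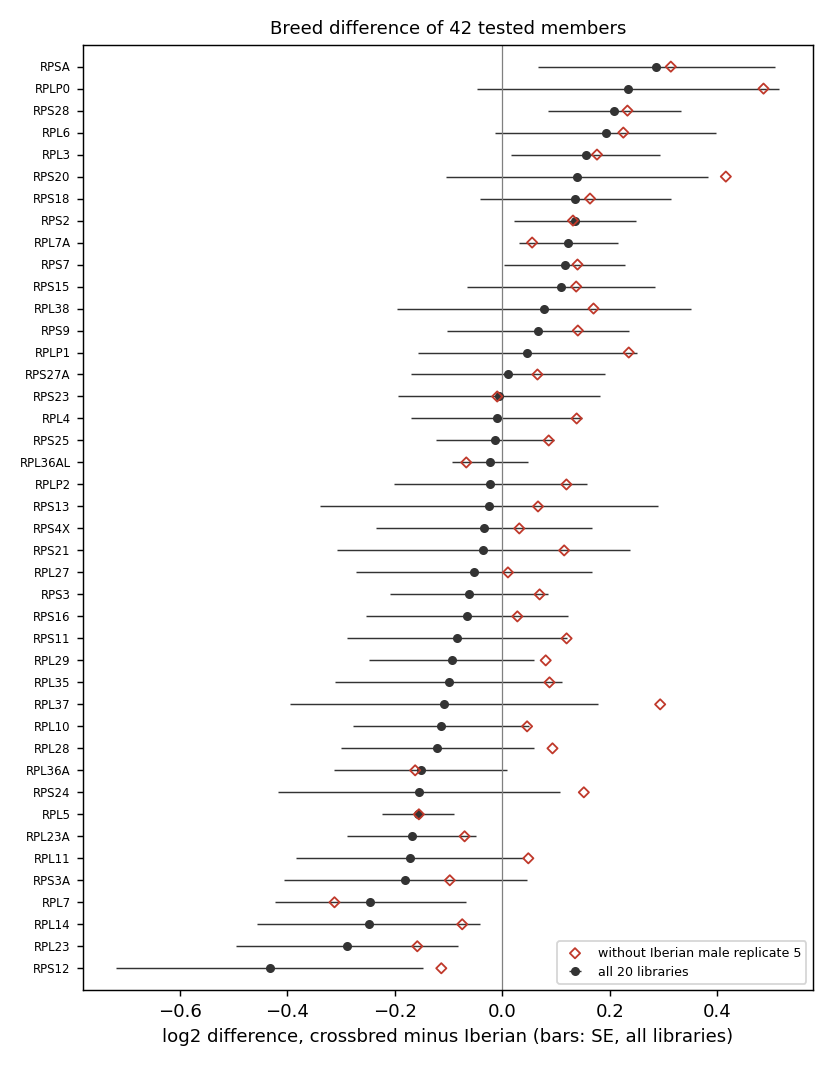
Log2 difference of crossbred minus Iberian pigs (x axis) for 42 of the 44 tested ribosomal protein genes, with its SE, over all 20 libraries (filled circles), and without Iberian male 5 (open diamonds). RPSA at 0.29 and RPS12 at -0.43 are the ends of the plotted range, and most diamonds lie right of their circles, RPL37 and RPS12 among them.

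Within males, no member passed (0 of 44 in edgeR, where 0.0282% of all genes passed; 0 in DESeq2), and 2 of 44 had an unadjusted p under 0.05, against 10.7% of all genes. The median log2 difference of crossbred minus Iberian males was -0.10 and was 0.14 without Iberian male 5, with 17 members above 0 and 32 above 0 without it. RPL5 had a log2 difference of -0.27 (SE 0.09, adjusted p = 0.296 in edgeR) and -0.26 without that library. RPS12 was at 5.36, 3.03, 7.87, 5.70 and 9.05 CPM in crossbred males and at 8.41, 7.93, 8.39, 6.91 and 29.6 CPM in Iberian males. Only Iberian male 5 was far above its group, and the log2 difference of -1.01 (SE 0.39, adjusted p = 0.339 in edgeR) was -0.37 (SE 0.30) without it. RPL37 at -0.65 and RPS24 at -0.55, a gene mutated in some patients with Diamond-Blackfan anaemia, turned to 0.15 and 0.07 without it. Among the positive values were those of RPSA at 0.49 (SE 0.30) and RPL3, which lies near the peptidyl transferase centre, at 0.29 (SE 0.19). RPL23A, whose protein lies at the exit of the peptide tunnel, had -0.29 (SE 0.17), with 78.9 CPM in Iberian male 5, and -0.09 (SE 0.14) without it.

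Within females, no member passed (0 of 44 in edgeR, where 0.0% of all genes passed; 0 in DESeq2), and 0 of 44 had an unadjusted p under 0.05, against 5.53% of all genes. The median log2 difference was 0.05, with 29 members above 0 and 15 below. Without crossbred female 5 it was -0.04, with 17 above 0 and 27 below, so this direction too rested on 1 library. RPS28 was at 23.1, 21.8, 24.1, 23.2 and 25.9 CPM in crossbred females and at 15.1, 20.3, 21.1, 16.8 and 20.5 CPM in Iberian females. Its values did not overlap between the breeds, and the log2 difference was 0.27 (SE 0.18, adjusted p = 0.945 in edgeR). RPL37 was at 10.4, 10.6, 12.9, 10.5 and 11.11 CPM in crossbred females and at 8.51, 7.69, 6.85, 8.63 and 7.46 CPM in Iberian females, also with no overlap (0.44, SE 0.41). These were 2 of 44 members without overlap, against 1.54% of all tested genes. Between crossbred and Iberian males 0 of 44 tested members did not overlap, against 1.92% of all tested genes. RPL38 had a log2 difference of 0.48 (SE 0.41) and of 0.21 (SE 0.42) without crossbred female 5, RPL14 of -0.43 (SE 0.30), RPL27 of -0.36 (SE 0.31) and RPL7 of -0.23 (SE 0.25), and none passed.

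The share of low-quality alignments parted the breeds in females, and it was split among Iberian males. It was 3.10 to 3.88% of entries in the 10 crossbred pigs, against 3.66, 5.59, 5.33, 3.10 and 2.73% in Iberian males and 5.41 to 5.92% in Iberian females. In females this share and breed cannot be told apart. With a term for it in the edgeR model (above or below 4.5%), the breed median of the members was -0.23, with 14 above 0, 30 below and 0 called. In females it was -0.18 with that term, with 13 above 0 and 31 below. Only Iberian males held both low and high shares, so they alone set the term. The female values with the term therefore do not part breed from the share. Among males with the low share, 5 crossbred and 3 Iberian, the median was -0.22, with 14 above 0, 30 below and 0 called. Iberian male 5 is 1 of those 3, and the direction turned in each of these fits without it. The breed median with the term was then 0.17 (34 above 0 and 10 below), the female median 0.16 (31 above 0 and 13 below) and the median of low-share males, with 2 Iberian males left, 0.17 (34 above 0 and 11 below), with 0 called.

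Between the sexes, no member passed (0 of 44 in edgeR, where 0.0705% of all genes passed; 0 in DESeq2), and 1 of 44 had an unadjusted p under 0.05, against 3.60% of all genes. The median log2 difference of males minus females was 0.04, with 25 above 0 and 19 below, and -0.07 with 12 above 0 and 32 below without Iberian male 5. RPL28 averaged 35.8 ± 13.5 CPM in males and 26.9 ± 5.63 CPM in females (log2 difference 0.41, SE 0.18, adjusted p = 1.000 in edgeR). Without Iberian male 5 males averaged 31.7 ± 4.45 CPM and the log2 difference was 0.19 (SE 0.12). RPL4 had 0.27 (SE 0.16), RPL23 0.31 (SE 0.21) and RPL38 0.28 (SE 0.27), which were 0.12 (SE 0.13), 0.17 (SE 0.19) and 0.19 (SE 0.28) without it. RPS3, a protein of the messenger entry site, had -0.20 (SE 0.15), and RPLP1 had -0.17 (SE 0.20). With Iberian male 5 left out, RPS3 had -0.33 (SE 0.12) and RPLP1 -0.36 (SE 0.18), both at an adjusted p of 0.999 in edgeR. Without crossbred female 5 RPS3 had -0.13 (SE 0.14) and RPLP1 -0.08 (SE 0.20).

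The X-linked members were RPL36A, RPL10 and RPS4X. RPL36A averaged 9.68 ± 1.82 CPM in males and 11.7 ± 2.91 CPM in females, a log2 difference of -0.29 (SE 0.16, adjusted p = 1.000 in edgeR). RPL10, which joins the large subunit late in its assembly, averaged 23.6 ± 7.18 CPM in males and 23.9 ± 5.09 CPM in females (-0.01, SE 0.16). RPL10 was at 42.8 CPM in Iberian male 5, and its log2 difference was -0.17 (SE 0.13) without that library and 0.02 (SE 0.17) without crossbred female 5. RPS4X averaged 8.51 ± 1.80 CPM in males and 7.91 ± 2.59 CPM in females (0.07, SE 0.20, and -0.00, SE 0.16, without Iberian male 5). The sexes overlapped for these 3 genes.

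Whether the breed difference depended on sex was tested as an interaction, and no member passed (0 of 44 in edgeR, where 0.0141% of all genes passed; 0 in DESeq2), with 0 of 44 at an unadjusted p under 0.05, against 8.36% of all genes. The median interaction was -0.13, and 0.05 without Iberian male 5. RPS12 had -1.15 (SE 0.57), which was -0.50 (SE 0.42) without it, and RPL37 had -1.09 (SE 0.57), which was -0.28 (SE 0.35). RPS13 had -0.88 (SE 0.63), RPL5 -0.22 (SE 0.13), RPL27 0.61 (SE 0.44), RPSA 0.41 (SE 0.44) and RPLP2 0.38 (SE 0.36). RPLP2 had 0.67 (SE 0.32, adjusted p = 0.471 in edgeR) without Iberian male 5 and 0.59 (SE 0.35) without crossbred female 5.

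Among the members below the count filter, RPL3L was at 2.44, 3.53, 1.75, 0.439 and 3.02 CPM in crossbred males and at 5.05, 5.09, 4.61, 6.05 and 4.61 CPM in Iberian males. It was at 2.31, 8.40, 3.75, 4.22 and 2.47 CPM in crossbred females and at 1.31, 3.50, 1.14, 1.82 and 4.20 CPM in Iberian females. Iberian males lay above both crossbred males and Iberian females without overlap in CPM. The gap to Iberian females was small, with 7 counts in Iberian male 5 (4.61 CPM) and 9 in Iberian female 5 (4.20 CPM). RPL3L is not among the tested genes, so the shares that follow do not cover genes of its depth. Of the 44 tested members, 0 did not overlap between Iberian males and Iberian females, against 0.832% of all tested genes, and 1, RPL37, was lower in each crossbred male than in each crossbred female, against 0.903% of all tested genes. In an edgeR fit with no filter on counts, the log2 difference of crossbred minus Iberian males was -1.24 (SE 0.43, adjusted p = 0.289) and the interaction was -1.98 (SE 0.62, adjusted p = 0.340). Neither passed, and the gene had 1 to 15 counts per library and overlaps NDUFB10. RPS27L had -1.06 (SE 0.51, adjusted p = 0.583) in males in the same fit.

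Iberian male 5 differed from its group in most ribosomal protein genes. On log2 CPM, 37 of 44 tested members were above the mean of the other 4 Iberian males, where 51.7% of all genes were, and the median difference was 0.81. More than 1 above that mean were 19 of 44 members, where 10.4% of all genes were. RPL37 was 2.36 above (34.9 CPM, against 12.3, 5.09, 6.29 and 6.48 CPM) and RPS12 2.01 above. RPS24 was 1.97, RPS20 1.88, RPLP0 1.70, RPL11 1.63 and RPL28 1.52 above, so members of both subunits and of the stalk were among the high ones.

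A few members went the other way in this library. RPL7A had a difference of -0.88 on the log2 scale, at 253 CPM against 473, 526, 649 and 566 CPM in the other 4 Iberian males. RPL36AL had a difference of -0.54, at 170 CPM against 286, 307, 287 and 290 CPM. RPL7 had -1.03, at 4.61 CPM against 16.3, 14.7, 8.39 and 10.8 CPM. The 8 most counted members had a median difference of -0.01 with 4 above 0, and the other 36 had a median of 0.96 with 33 above 0.

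Beside this stood the pituitary markers and ND6 share given above. Of the 5 pituitary genes, PRL had 157, CGA 163 and FSHB 111 counts in Iberian male 5, against at most 4, 2 and 2 in the others. TSHB had 2 and POU1F1 had 1 count in it, against at most 1 and 5 in the others. Of 4 listed markers of tanycytes and ependyma 3 were matched, among them VIM, with 782 counts over 20 libraries. Their sum was 80.3 CPM in Iberian male 5, against 14.6 to 31.97 CPM in the others, and how much VIM alone gave was not tested. Oligodendrocyte markers were 1189 CPM in this library, against 1354 to 2092 CPM. Neuronal markers were 136 CPM in it, against 80.5 to 111 CPM, hypothalamic peptides 68.4 CPM, against 21.5 to 64.8 CPM, and microglial markers 257 CPM, against 327 to 413 CPM. Markers of astrocytes, vessels, choroid plexus and blood lay within the range of the others. The part of these in the levels of the ribosomal protein genes was not tested. Other translation genes in this library had medians of 0.71 for elongation factors (5 of 6 above the mean of the other 4), 0.47 for initiation factors (17 of 21), 0.30 for ribosome biogenesis (29 of 42), 0.12 for mTOR and S6 kinase genes (9 of 14) and 0.07 for mitochondrial ribosomal proteins (12 of 21). They were -0.06 for other messengers with a pyrimidine tract (4 of 9) and -0.02 for surveillance and import of free ribosomal proteins (2 of 5).

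Crossbred female 5 was high to a lesser degree. In it 40 of 44 members were above the mean of the other 4 crossbred females, where 50.0% of all genes were, with a median difference of 0.45, and 2 members were more than 1 above, where 1.06% of all genes were. These were RPLP0 at 1.11 and RPL38 at 1.08. Its pituitary markers and its ND6 share (6.88%) lay within the range of the other libraries. In both libraries 36 of 44 members were above their group mates, while RPL36A and RPL36AL were among those below in both.

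**Figure D5:**
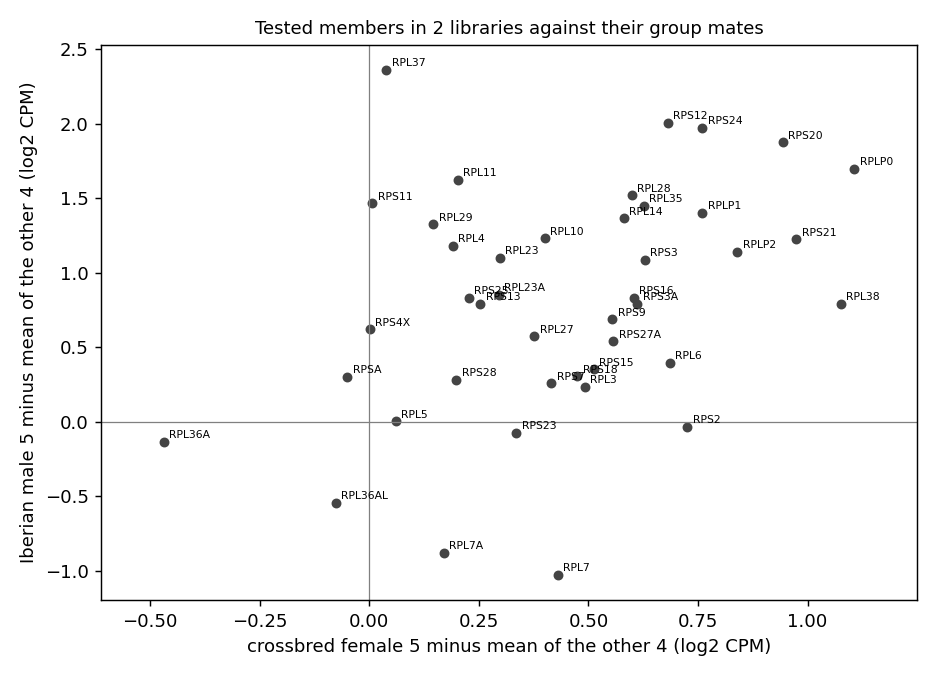
Log2 CPM of 42 of the 44 tested ribosomal protein genes in Iberian male 5 minus the mean of the other 4 Iberian males (y axis) and in crossbred female 5 minus the mean of the other 4 crossbred females (x axis), 1 point per gene, with lines at 0. Most points lie in the upper right, with RPL37 highest at 2.36 and RPL7 and RPL7A lowest at -1.03 and -0.88.

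Among 7046 tested genes outside the family, EEF2, the elongation factor that moves the ribosome along the messenger, followed the mean log2 CPM of the 44 members most closely, with a Pearson correlation of 0.90 over 20 libraries and 0.79 over the 19 without Iberian male 5. EEF2 ranked first in both. Next over 20 libraries were PLD3 (0.90), EZR (0.88), ALDOA (0.87) and the unnamed gene ENSSSCG00000012886 (0.86), and over 19 libraries USP5, TF, SIRT2 and ENSSSCG00000002995 (0.78, 0.77, 0.77 and 0.76). Genes were picked for this likeness, and the libraries share depth and composition, so no p is given. EEF2 was at 114 CPM in Iberian male 5, and the other 19 libraries ran from 52.4 to 95.1 CPM, the top of that range in crossbred female 5. High values in these libraries go with how EEF2 was picked and are not particular to it. PLD3, EZR, ALDOA, USP5, TF and SIRT2 also had the top of the other 19 in crossbred female 5.

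Of 116 tested genes on the lists of translation and ribosome assembly, 0 passed for breed and 0 for sex in edgeR or DESeq2, while 7 for breed and 4 for sex had an unadjusted p under 0.05, against 7.48% and 3.60% of all genes. Within males 0 passed in edgeR, 12 had an unadjusted p under 0.05, against 10.7% of all genes, and DESeq2 called 1. That gene was MRPS18C, of the small subunit of the mitochondrial ribosome, named after its values were seen (log2 difference -0.41, SE 0.11, adjusted p = 0.048 in DESeq2 and 0.186 in edgeR). The remaining values of this paragraph are for breed over both sexes, in edgeR. Initiation factors lay above 0 in 6 and below in 15 of 21 tested, with a median of -0.07. PABPC1, the poly(A)-binding protein, had -0.58 (SE 0.32, adjusted p = 0.700). Ribosome biogenesis genes lay above 0 in 14 and below in 28 of 42 tested (median -0.05), among them PWP2 at -0.24 (SE 0.10, adjusted p = 0.558). Mitochondrial ribosomal proteins lay above 0 in 12 and below in 9 of 21 tested (median 0.04), and mTOR and S6 kinase genes in 7 and 7 of 14, with RRAGD at -0.32 (SE 0.15, adjusted p = 0.627). Elongation and release factors lay above 0 in 3 and below in 3 of 6. Other messengers with a pyrimidine tract at their start lay above 0 in 1 and below in 8 of 9 (median -0.15), and genes for the surveillance and import of free ribosomal proteins in 0 and 5 of 5 (median -0.15). IPO7 and NAP1L1 are on both of these lists, and IPO7 gives the median of both. No split of any list was taken without Iberian male 5. FAU, a ribosomal protein under another name, had 0.03 (SE 0.06), and RACK1, a scaffold on the small subunit, had -0.22 (SE 0.24). Over all 7090 genes tested 49.1% lay above 0.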

How the data were processed

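Per the labels' protocols, RNA with integrity numbers of 7.8 to 9.8 was made into libraries with an Illumina mRNA kit and read as pairs of 76 bases. Per the submitters' processing notes, FastQC, Trim Galore, HISAT2, HTSeq and DESeq2 were used with Sscrofa11.1. What the authors deposited are counts of reads for each gene, without scaling. The 5 summary lines stayed out of totals and tests (80.2 to 88.1% of entries matched no feature). The members and related lists were chosen with earlier results of these data known.

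Counts were tested over the whole table with edgeR 4.0.16 (R 4.3.3), with TMM, filtering at 10 counts in a group-sized number of libraries and 15 in all, 1 mean per group, robust dispersions, and Benjamini-Hochberg adjustment at 0.05. CPM are counts scaled to the library total of gene counts, and log2 CPM has a prior count of 2. Alternatives were RLE, DESeq2 1.42.0, limma 3.58.1 voom with quality weights, 2 other filters, a replicate block, an alignment-quality term and each library left out. Fits without both Iberian male 5 and crossbred female 5, and without Iberian male 5 beside the alignment-quality term or among low-share males, were added after seeing the data. Symbols matched 57.4% of gene rows, and coordinates came from RefSeq by symbol. Named are, for each contrast, the 3 members with the smallest p and the 3 at either end of the range, the 6 most and 3 least counted, fixed members by role, and of related lists at most 3 genes each. Within-group pairs of libraries (40) differed by a chi-square of 2.45 to 73.8 per degree of freedom, so no library was a copy of another in its group. Separate libraries of the same animal could differ as well, and this was not tested. Values of 2 members are not reported here singly, though counts and sums over the members include them. The test was tried on simulated data first. Floors cover counting error only.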

Additional observations from a re-analysis of the deposited data

Results flagged for a closer look

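Values that lay far from the other 4 of their group by Dixon's criterion at 95% were 15 of 120 groups of 5 tested (30 levels in 4 groups). For levels not picked from the data, chance alone gives about 1 in 20 groups. Many of the members tested here were named for their differences in these same data, so the 15 cannot be judged against that rate. Of the 15, 11 were in Iberian male 5, and levels within 1 library are not independent of each other.

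In Iberian male 5 the high values were RPL10 at 42.8 CPM, RPL28 at 72.4 CPM, RPL4 at 33.6 CPM, RPL37 at 34.9 CPM, RPS3 at 34.9 CPM, RPS12 at 29.6 CPM and RPS24 at 28.9 CPM. Of the stalk, RPLP0 at 17.1 CPM and RPLP1 at 20.4 CPM were high. RPL36AL at 170 CPM was low. The sum of the 45 members without the 4 most counted was 1118 CPM, against 636 to 676 CPM in the other 4 Iberian males.

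In crossbred female 5, RPS24 was at 15.4 CPM, against 8.43 to 9.65 CPM in its group, and the same sum was 930 CPM, against 641 to 725 CPM. RPL7A was high in Iberian female 3 at 641 CPM, against 525 to 543 CPM in the other 4, and RPS12 was low in Iberian female 1 at 3.27 CPM.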

How the results depend on the processing

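No member was called in any contrast fitted under any of the 32 sets of fits, which include each library left out. All 5 contrasts were fitted in these sets except among low-share males, where only the breed difference within males was fitted. The median log2 difference of the members was less stable. For breed it ran from -0.07 to 0.09 over the fits with 1 library left out, for females from -0.04 to 0.11, for males from -0.20 to 0.14, for sex from -0.07 to 0.09 and for the interaction from -0.20 to 0.05, and the ends at 0.09 (breed), 0.14, -0.07 (sex) and 0.05 came without Iberian male 5, while -0.04 (females) and 0.09 (sex) came without crossbred female 5. Without both that library and crossbred female 5 the medians were 0.14 for males and 0.12 for the interaction. With the alignment-quality term, which Iberian males alone set, the female median was -0.18. In males, RPL37 turned to 0.19 and RPS24 to 0.00087 with voom, to 0.15 and 0.073 without Iberian male 5, and to 0.15 and 0.073 without both libraries. With 1 library left out they ran from -0.85 to 0.15 and from -0.71 to 0.073. With the alignment-quality term RPLP0 turned to -0.23 for breed, and RPL37 to -1.17 in females and 0.029 for the interaction. With the term and without Iberian male 5 (chosen after seeing the data) the male median was 0.17, RPL23 0.19 and RPS12 0.029 for breed, RPL27 0.18 and RPL37 -0.14 in females, RPL23A 0.061 and RPS24 0.30 in males, and RPL37 0.037 for the interaction. Among low-share males without it the median was 0.17, RPL23A 0.069 and RPS24 0.30. The cause of these shifts was not tested. With ND6 left out of the total, the summed level was 2019 CPM in crossbred males, 2052 in crossbred females, 2024 in Iberian males and 1943 in Iberian females. With RLE scaling it was 1841 in crossbred males, and without Iberian male 5 it was 1800 in Iberian males.

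Counts of all genes called moved by over 1.5 times, for breed between 0 (alignment-quality term) and 78 (no filter) against 16, for females between 0 and 17 against 0, for males between 0 and 48 against 2, for sex between 4 and 12 against 5, and for the interaction between 0 and 7 against 1. Deviations of same-numbered libraries of different groups had correlations of -0.08 to 0.19 (30 pairs, median 0.015, 5 over 0.1). Those of different-numbered libraries were -0.23 to 0.22 (120 pairs, median -0.001, 7 over 0.1). Whether the numbers mark a weak pairing cannot be settled by these values. With the replicate block the breed median of the members was -0.02, with 0 members and 15 genes called. Most members had few counts per library, which limits what could be seen.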

Other observations

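VPS52, the neighbour that overlaps RPS18, had 58 counts (38.2 CPM) in Iberian male 5, against 503 to 612 CPM in the other 19 libraries, a log2 difference of -3.63 from the other 4 Iberian males. VPS52 encodes a subunit of a complex that tethers vesicles to the Golgi. RPS18 itself was at 9.21 CPM in that library, against 7.77 to 9.62 CPM in the other 4. TLCD1, the neighbour of RPL23A, was at 6651 CPM in Iberian male 5, against 3564 to 4295 CPM in the other 19. RPL23A was at 78.9 CPM there, against 43.7 to 59.1 CPM in the other 4 Iberian males. NDUFB10 was highest in crossbred female 5, at 13554 CPM, and RPS2 beside it was highest there too, at 122 CPM. Other pairs went apart. RPL3L, which also overlaps NDUFB10, was at 2.47 CPM in crossbred female 5, against 2.31 to 8.40 CPM in the other crossbred females. MTIF2 was highest in crossbred female 5, at 3827 CPM. RPS27A beside it was at 14.2 CPM there and at 16.2 CPM in crossbred female 2. ACY1 was at 1807 CPM in Iberian male 5, below the 1960 to 2641 CPM of the other 19. RPL29, which overlaps ACY1, was highest in that library, at 55.9 CPM. CABLES2 was at 1007 CPM there, against 1003 to 1473 CPM, while RPS21 was highest, at 11.2 CPM. Most members were high in Iberian male 5 and crossbred female 5, and whether a member follows its neighbour was not tested.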
